A study of Mus musculus with 6 samples.

Results

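The 8 genes described here encode the receptor system by which cells of the kidney proximal tubule take filtered proteins back up from the tubule fluid. They are Lrp2, Cubn, Amn, Lrpap1, Dab2, Clcn5, Ocrl and Fcgrt. The measurement is ATAC-seq of mouse kidney cortex, in which a transposase cuts and tags DNA that is not packed away in nucleosomes, so that reads pile up where chromatin is accessible. The genes were chosen by name and function, not by their values, though with earlier results of these data known. Their intervals were taken by position: every distinct interval of the deposited peak list that overlaps the stretch from 3 kb upstream of the gene start to the gene end, in the GENCODE M39 annotation of GRCm39. This gave 232 of 279569 intervals (0.0830%), which hold 550 of the 749750 summits of the list, and no interval belonged to more than 1 of the 8 genes.

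The study asked how loss of ATP citrate lyase (Acly), an enzyme that makes acetyl-CoA, changes chromatin in kidney disease. The labels map 3 libraries to WT kidneys and 3 to Acly cKO kidneys, all with the treatment given as Control. In the Acly cKO mice, floxed Acly alleles (Acly fl/fl) are recombined by Ksp-Cre, driven by the Cdh16 promoter, in cells of the proximal and distal tubules and the collecting ducts. By the study's methods the controls were littermates that carry Acly fl/fl without Cre. The labels give neither age nor sex. WT libraries came from batches 1 and 2 and Acly cKO libraries from batches 4 and 5, and a batch effect and a genotype effect cannot be told apart. The peak list is a single call over pooled libraries: it has no column for a library or a genotype, and which libraries entered the pool is not given in the sources used here. The study's methods also name WT libraries deposited earlier, which may be in it and were not analysed here as samples. Every value below therefore describes the pool, with no replicate error and no comparison between genotypes.

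Megalin (Lrp2) and cubilin (Cubn) are very large receptors on the brush border of the proximal tubule that bind albumin, vitamin carriers, hormones and many other filtered proteins. Cubilin has no membrane span of its own and needs amnionless (Amn) to reach the surface, while RAP (Lrpap1) is a chaperone that keeps ligands off megalin during its folding. Dab2 links the receptor tails to clathrin, ClC-5 (Clcn5) exchanges chloride for protons in endosomes, OCRL (Ocrl) is an inositol polyphosphate 5-phosphatase of the same compartments, and the neonatal Fc receptor (Fcgrt) returns albumin and IgG from endosomes to the circulation. Inherited loss of megalin, cubilin, amnionless, ClC-5 or OCRL leads to loss of protein in the urine.

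Each interval is described by the fold enrichment at its highest summit, the ratio of reads piled up there to the background that the peak caller used, with 1 read added to both. This background was the same everywhere, 14.3 reads, so that each additional read added 0.0655 to the fold enrichment and the number of reads at a summit could be recovered. The 95% intervals given below are exact Poisson intervals on those reads. They cover counting error only, and a summit is by construction a local maximum. The lowest pileup in the list was 25 reads, a fold enrichment of 1.70. Because the tissue is bulk cortex, a larger number of cells of a type and greater accessibility in each cell cannot be told apart. Intervals over the transcription start site (TSS) with a fold enrichment of 5 or more were listed for all 10 proximal tubule markers, with a median of 14.5, beside 66.2% of all protein-coding genes. The same count was 4 of 4 for the thick limb and distal tubule, 3 of 4 for stroma, 2 of 4 each for podocytes, immune cells and the ileum, where cubilin and amnionless also act, and 1 of 4 each for the collecting duct and endothelium. The median over the immune markers with a TSS interval, 27.6, was above that of the proximal tubule. None of 6 marker genes of other organs reached 5 over the TSS, the highest being 3.40. More than 1 kb from the TSS, 5 of these 6 had an interval at 5 or more, beside 50.7% of all protein-coding genes. That count was 5 of 10 for the proximal tubule, and from 1 of 4 (podocytes) to 4 of 4 (immune cells) for the other lists. The part of each cell type in the signal at the 8 genes was not tested.

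All 8 genes had an interval within 1 kb of the TSS of their canonical transcript, against 75.8% of 21757 protein-coding genes. At a fold enrichment of 5 or more the count was again 8 of 8, against the same 66.2% of all protein-coding genes. Among X-linked genes, which include Clcn5 and Ocrl, the share at 5 or more was 45.1%, and both genes reached it. Fold enrichment over the TSS was highest at Fcgrt (49.8) and lowest at Cubn (15.1). The median of the 8 genes was 30.7, beside a median of 30.1 and quartiles of 12.4 and 48.3 for the 16499 protein-coding genes with such an interval. The TSS intervals of these genes were thus of ordinary height for an open promoter in this list. In descending order came Fcgrt, Clcn5, Lrp2, Lrpap1, Dab2, Amn, Ocrl and Cubn. The counting intervals of neighbours in this order overlapped from Clcn5 through Dab2 and between Amn and Ocrl, and did not overlap between Fcgrt and Clcn5, between Dab2 and Amn, or between Ocrl and Cubn.

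**Figure D1:**
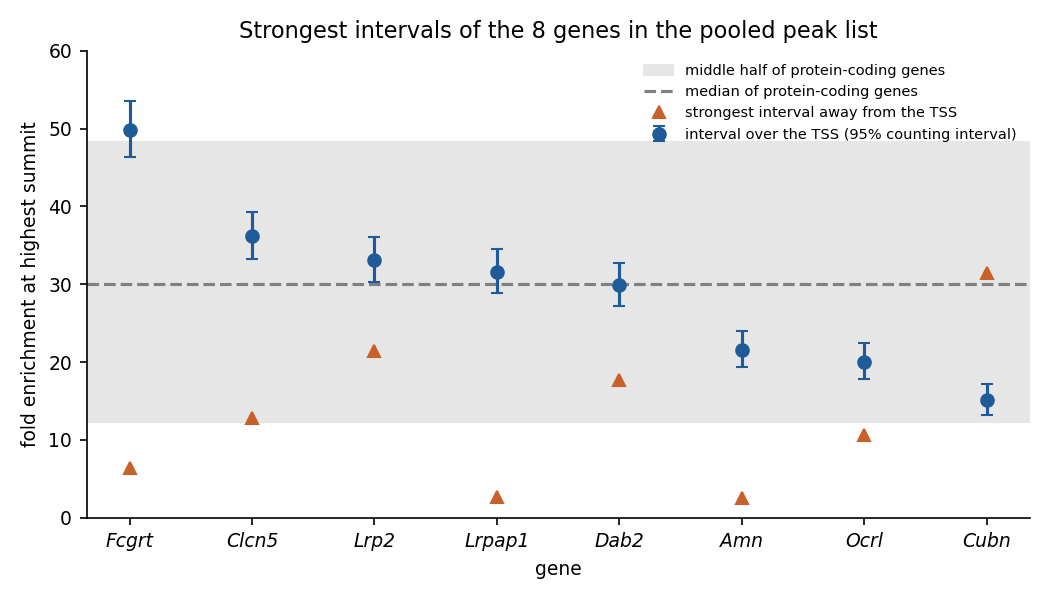
Fold enrichment at the highest summit (linear axis) for each of the 8 genes. Circles are the interval over the TSS with its 95% Poisson counting interval, triangles the strongest interval away from the TSS, the dashed line the median of protein-coding genes with a TSS interval (30.1) and the grey band their middle quartiles (12.4 to 48.3). Only at Cubn does the triangle (31.4) lie above the circle (15.1).

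Away from the TSS the genes differed far more from each other. Of the 232 intervals, 221 lay more than 1 kb from the canonical TSS. By the position of the highest summit, 157 of these were in introns (33 of them in a first intron), 14 in exons and 50 upstream of the canonical TSS. Most were weak: the median fold enrichment of all 232 was 2.36, beside 2.55 for the whole list, and 48 of 232 (20.7%) reached 5, beside 24.5% of the list. Of the away intervals, 39 reached 5, most of them at 4 genes, Dab2 (13), Cubn (12), Lrp2 (8) and Clcn5 (4). At least 1 such interval was found at 6 of the 8 genes, against 50.7% of all protein-coding genes. The exceptions were Amn and Lrpap1. Lrp2, Cubn, Dab2 and Clcn5 are all longer than 100 kb, and 90.3% of the 2571 protein-coding genes of that length had at least 1 away interval at 5 or more, with a median of 5 per gene. Among these 4 genes the counts did not follow length, since Dab2, the shortest (141 kb), had the most.

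**Figure D2:**
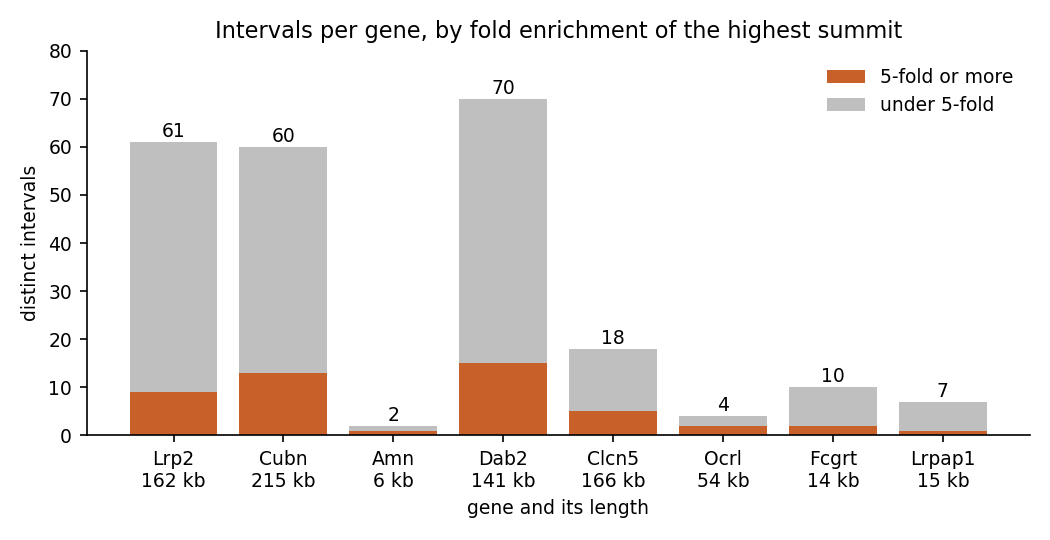
Number of distinct intervals at each of the 8 genes (bars from 0, with the total above), split into those with a fold enrichment of 5 or more and those under 5. Dab2 (70), Lrp2 (61) and Cubn (60) hold most of the 232 intervals, and Clcn5 has 18 over a gene length (166 kb, below its name) close to that of Lrp2 (162 kb).

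Lrp2 (ENSMUSG00000027070.16, chr2:69254682-69416409, minus strand, 79 exons) is the gene of megalin. Its promoter is moderately rich in CpG, with an observed to expected ratio of 0.699 in the window from 250 bases before to 50 bases after the TSS, which is shared by 3 coding transcripts. The 150 bases upstream of the TSS are shown with those of Cubn and Amn, whose proteins act with megalin, and CpG dinucleotides are in capitals.
Lrp2 upstream, chr2:69416410-69416559, minus strand: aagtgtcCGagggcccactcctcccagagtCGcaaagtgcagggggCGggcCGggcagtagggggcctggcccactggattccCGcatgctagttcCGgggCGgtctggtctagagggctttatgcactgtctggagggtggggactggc
Cubn upstream, chr2:13496625-13496774, minus strand: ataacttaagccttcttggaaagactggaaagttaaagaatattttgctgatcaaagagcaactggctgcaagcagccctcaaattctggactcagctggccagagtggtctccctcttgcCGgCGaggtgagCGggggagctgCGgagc
Amn upstream, chr12:111237374-111237523, plus strand: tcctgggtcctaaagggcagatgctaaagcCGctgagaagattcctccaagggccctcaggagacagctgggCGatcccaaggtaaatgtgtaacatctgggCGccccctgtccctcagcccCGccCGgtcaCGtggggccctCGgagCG

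The interval over the Lrp2 TSS, chr2:69414204-69419513, was 5310 bp wide with 14 summits. Its highest summit lay 84 bases upstream of the TSS, with 504 reads and a fold enrichment of 33.1 (95% counting interval 30.2 to 36.1). This placed it at percentile 54.7 of the TSS intervals of protein-coding genes. The gene held 61 intervals, or 3.70 per 10 kb, and 28.7% of its region was covered by them. Among the 2571 protein-coding genes of 100 kb or more, the density was at percentile 89.7. By contrast, its 8 away intervals at a fold enrichment of 5 or more were at percentile 65.2 of the same genes.

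Most of the strong Lrp2 intervals were in the first part of the gene. Intron 1, 33.4 kb long, held 17 intervals, of which 4 reached a fold enrichment of 5. The highest of these were 17.9 at chr2:69396133-69398535, 19.6 kb into the gene, and 14.7 at chr2:69400412-69401730, 15.3 kb into it. The strongest interval away from the TSS was in intron 2, at chr2:69381613-69382977, 34.2 kb from the TSS, with 326 reads and a fold enrichment of 21.4 (19.2 to 23.9). Intron 4 held 1 at 8.45. Then came a long stretch with none at 5 or more until intron 63, where chr2:69275594-69279825, 140 kb from the TSS, reached 17.2 (15.2 to 19.4) with 13 summits. The last was in intron 77, at 8.97. The highest summit with 50 bases on either side is shown for intron 2, with the summit base in capitals, and for intron 63, with a match to the HNF4 motif searched below in capitals.
Lrp2 intron 2, chr2:69382142-69382242, minus strand: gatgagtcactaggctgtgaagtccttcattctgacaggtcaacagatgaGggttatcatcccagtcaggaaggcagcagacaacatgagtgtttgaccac
Lrp2 intron 63, chr2:69276393-69276493, minus strand: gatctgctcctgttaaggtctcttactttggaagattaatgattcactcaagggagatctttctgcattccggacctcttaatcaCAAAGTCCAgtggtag

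Cubn (ENSMUSG00000026726.11, chr2:13281149-13496624, minus strand, 67 exons), the gene of cubilin, showed the opposite arrangement to Lrp2, with its strongest signal deep in the gene. Over the TSS, chr2:13495246-13497447 had 230 reads at its highest summit and a fold enrichment of 15.1 (13.2 to 17.2), percentile 28.5 of TSS intervals and the lowest of the 8 genes. The promoter window is poor in CpG (ratio 0.329). A TSS interval was listed for 58.9% of the 12326 protein-coding genes with a ratio under 0.6 and for 97.9% of the 9431 at or over 0.6. Among the genes that had one, the median fold enrichment was 15.9 in the first class and 39.2 in the second, and the Cubn TSS was at percentile 48.6 of those in its own class.

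The strongest Cubn interval lay in intron 31, at chr2:13374658-13378691, 119 kb from the TSS. It had 479 reads and a fold enrichment of 31.4 (28.7 to 34.4), so that its counting interval did not overlap that of the TSS. Cubn was the 1 gene of the 8 whose strongest interval was away from the TSS, an arrangement found at 29.9% of the 18102 protein-coding genes with an interval. Among the 16543 protein-coding genes with an away interval, the Cubn value was at percentile 87.3. Such values were higher in long genes: for genes of 100 kb or more the median was 16.5 and the upper quartile 27.6. A second cluster lay in intron 27, 20.6 kb long, where 3 of 6 intervals reached 5: chr2:13414314-13416053 at 23.7 (21.3 to 26.3), chr2:13409193-13414152 at 18.2 (16.1 to 20.5), with 16 summits, and chr2:13418077-13419106 at 13.9 (12.1 to 15.9). These lay 78.1 to 84.4 kb from the TSS. The strongest summits of introns 31 and 27 are shown with 50 bases on either side and the summit base in capitals.
Cubn intron 31, chr2:13377142-13377242, minus strand: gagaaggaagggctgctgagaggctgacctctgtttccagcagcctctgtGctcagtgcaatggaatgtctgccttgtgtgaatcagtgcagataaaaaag
Cubn intron 27, chr2:13414744-13414844, minus strand: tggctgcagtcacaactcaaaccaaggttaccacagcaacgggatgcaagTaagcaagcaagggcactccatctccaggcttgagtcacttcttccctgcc

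Further Cubn intervals at 5 or more were in intron 17 (12.4), intron 6 (12.2 and 7.59), intron 23 (9.49), intron 28 (7.92), intron 29 (7.73) and intron 66 (6.22), and 1 lay 1.74 kb upstream of the TSS (5.83). The interval in intron 6 with 12.2 overlaps the annotated gene Gm75437 and lies within 1 kb of its TSS. The interval in intron 6 with 7.59 lies within 1 kb of the same TSS without overlapping Gm75437, and the 1 in intron 66 overlaps Gm13270. ATAC-seq alone does not assign accessibility there to Cubn or to the other gene. In all, Cubn held 60 intervals, 2.75 per 10 kb, at percentile 79.5 of long genes, and its 12 away intervals at 5 or more were at percentile 81.3.

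**Figure D3:**
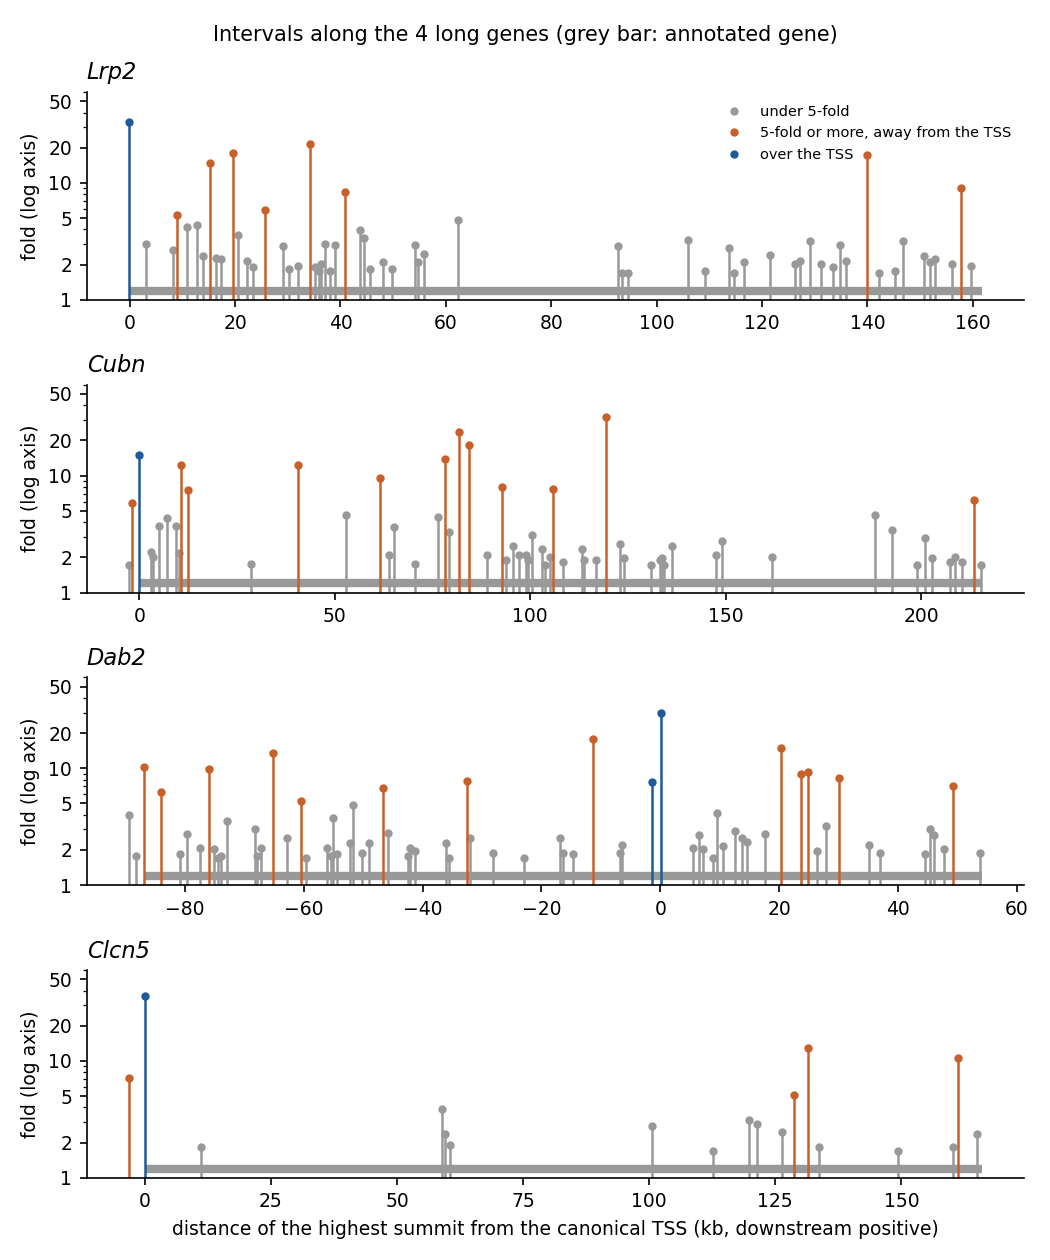
Each stem is 1 interval, placed at the distance of its highest summit from the canonical TSS (kb, downstream positive) with its fold enrichment on a log axis, for Lrp2, Cubn, Dab2 and Clcn5. Blue marks intervals over the TSS, orange those away from it at a fold enrichment of 5 or more, grey those under 5, and the grey bar the annotated gene. The tallest stem of Cubn stands 119 kb into the gene, 6 of the 8 orange stems of Lrp2 lie within 40.9 kb of the TSS, and Dab2 has orange stems on both sides of its TSS.

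Amn (ENSMUSG00000021278.9, chr12:111237524-111244001, plus strand, 12 exons) is a short gene, 6.48 kb, and differed from both partners. Nearly all of it lay in 1 interval, chr12:111235189-111243433, which was 8245 bp wide with 22 summits, at percentile 92.1 of the widths of TSS intervals. The Amn region was covered to 90.03%, beside a median of 16.7% for protein-coding genes of all lengths. Their median length was 19173 bp, and no comparison with genes as short as Amn was made. The highest summit was 25 bases upstream of the TSS, with 329 reads and a fold enrichment of 21.6 (19.3 to 24.1), percentile 37.1. The interval also overlaps the annotated gene Gm59431 and lies within 1 kb of its TSS. ATAC-seq alone does not assign the accessibility there to Amn or to Gm59431. The other interval, 2.78 kb upstream, had a fold enrichment of 2.55.

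Lrpap1 (ENSMUSG00000029103.18, chr5:35248837-35263892, minus strand, 8 exons), the gene of the megalin chaperone RAP, had its accessibility almost wholly at the promoter. The interval chr5:35260409-35263974 peaked 2 bases upstream of the canonical TSS, which 17 of 34 transcripts share, with 482 reads and a fold enrichment of 31.6 (28.9 to 34.6), percentile 52.5. The other 6 intervals lay in introns and the last exon, with fold enrichments from 1.77 to 2.68. The promoter window has a CpG ratio of 0.698, near that of Lrp2, and the upstream 150 bases carry 9 CpG dinucleotides, shown in capitals.
Lrpap1 upstream, chr5:35263117-35263266, minus strand: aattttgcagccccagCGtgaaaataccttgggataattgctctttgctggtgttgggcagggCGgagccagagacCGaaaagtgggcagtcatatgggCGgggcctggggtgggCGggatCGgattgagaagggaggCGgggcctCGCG

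Dab2 (ENSMUSG00000022150.18, chr15:6329269-6470196, plus strand) encodes the adaptor that carries the receptors into clathrin-coated pits. Its annotation has 31 transcripts and far-apart starts: the canonical TSS, at position 6416079 and used by 13 coding transcripts, lies 86.8 kb downstream of the gene start. The interval over the canonical TSS, chr15:6415306-6421267, had 455 reads and a fold enrichment of 29.9 (27.2 to 32.7), percentile 49.6, with its highest summit 95 bases inside the gene. The upstream start was open too, but less so: chr15:6328275-6331430, which covers the start at 6329269, had 155 reads and a fold enrichment of 10.2 (8.68 to 11.9). The intervals at the canonical and upstream starts did not overlap in their counting error. A further interval, with its nearer edge within 1 kb of the canonical TSS and its summit 1.31 kb upstream, had a fold enrichment of 7.59.

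Dab2 was the most densely covered of the 4 long genes, with 70 intervals, 4.86 per 10 kb, at percentile 98.5 of genes of 100 kb or more. Of its 68 away intervals, 44 lay between 3 kb upstream of the gene start and the canonical TSS, where the transcripts from the upstream start run. Its strongest away interval was 11.4 kb upstream of the canonical TSS, chr15:6403759-6406780, with 269 reads and a fold enrichment of 17.7 (15.6 to 19.9). Next came 15.0 (13.1 to 17.1) in intron 1, at chr15:6435922-6437681, 20.4 kb downstream of the TSS, and 13.5 (11.7 to 15.5) at chr15:6349930-6352239, 65.2 kb upstream. Intron 1, 29.9 kb long, held 16 intervals and 4 at 5 or more. The 13 away intervals at 5 or more put Dab2 at percentile 83.8 of long genes. They include the interval at its own upstream start (10.2), since away is counted from the canonical TSS. They also include an interval at 9.82 that overlaps the annotated genes Gm16311 and Gm63092 within 1 kb of their TSSs, and another at 6.29 that overlaps Gm16311. The summit window of the strongest away interval and the 150 bases upstream of the start at 6329269 follow, the first with the summit base and the second with its CpG in capitals.
Dab2 11.4 kb upstream, chr15:6404641-6404741, plus strand: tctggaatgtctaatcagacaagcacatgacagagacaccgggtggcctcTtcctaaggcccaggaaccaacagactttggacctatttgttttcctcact
Dab2 upstream start, chr15:6329119-6329268, plus strand: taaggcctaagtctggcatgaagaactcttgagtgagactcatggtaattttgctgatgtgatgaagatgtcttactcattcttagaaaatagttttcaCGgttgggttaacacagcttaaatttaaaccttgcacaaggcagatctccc

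Clcn5 (ENSMUSG00000004317.16, chrX:7019726-7185661, minus strand, 15 exons) encodes the endosomal chloride-proton exchanger ClC-5. It had the second highest TSS signal of the 8 genes: chrX:7184201-7186638 reached 551 reads and a fold enrichment of 36.1 (33.2 to 39.3), at percentile 58.9 of all TSS intervals and 75.2 of those on the X chromosome. X-linked genes had a lower median, 22.5 beside 30.4 on the autosomes, and the number of X chromosomes per cell depends on sex, which the labels do not give. With 18 intervals, 1.07 per 10 kb, Clcn5 was near the middle of long genes, at percentile 46.8, and below the other 3 long genes of the set. X-linked genes held fewer intervals per length than autosomal ones, with medians of 0.382 and 1.96 per 10 kb.

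Another Clcn5 interval covers a start of its own. The interval chrX:7052956-7055130, in intron 4 of the canonical transcript and 132 kb from its TSS, contains the start of a shorter coding transcript at position 7054953. It had 195 reads and a fold enrichment of 12.8 (11.1 to 14.8), the highest at Clcn5 away from the canonical TSS. In exon 15, the last, chrX:7023865-7024888 reached 10.5 (8.98 to 12.3). An interval 3.07 kb upstream of the TSS reached 7.14 and another in intron 4 reached 5.11. The 150 bases upstream of both starts are shown with CpG in capitals, and there are 6 at the canonical start and 2 at the inner start.
Clcn5 canonical start, chrX:7185662-7185811, minus strand: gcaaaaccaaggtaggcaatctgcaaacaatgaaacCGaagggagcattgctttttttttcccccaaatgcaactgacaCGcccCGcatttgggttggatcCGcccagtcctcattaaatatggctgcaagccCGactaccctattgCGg
Clcn5 inner start, chrX:7054954-7055103, minus strand: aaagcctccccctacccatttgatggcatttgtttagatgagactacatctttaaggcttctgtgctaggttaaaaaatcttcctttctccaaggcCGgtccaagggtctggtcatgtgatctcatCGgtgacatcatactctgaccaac

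Ocrl (ENSMUSG00000001173.17, chrX:47001264-47055310, plus strand, 24 exons), the gene of the endosomal lipid phosphatase, had the fewest intervals per length of the 8 genes, 4 in all or 0.701 per 10 kb, beside the median of 0.382 for X-linked genes. The interval over the TSS, chrX:47000883-47002764, had 305 reads and a fold enrichment of 20.03 (17.9 to 22.4), percentile 35.0 of all TSS intervals and 45.8 of those on the X chromosome. Its summit lay inside the gene, and 14 of 24 transcripts start at the canonical TSS. Intron 18 held chrX:47038273-47039111 with a fold enrichment of 10.6 (9.04 to 12.4), which overlaps the annotated gene Gm61692 and lies within 1 kb of its TSS. The remaining intervals were in introns 4 and 5, at 3.21 and 4.58.

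Fcgrt (ENSMUSG00000003420.10, chr7:44742412-44756819, minus strand), the gene of the neonatal Fc receptor, had the strongest TSS interval of the 8 genes. The interval chr7:44751087-44754205 reached 760 reads and a fold enrichment of 49.8 (46.3 to 53.5), percentile 76.7 of all TSS intervals and 88.7 of those with a promoter window poor in CpG like its own. The annotated canonical TSS, at 44754071, belongs to 1 transcript, and the highest summit lay 803 bases inside it. A second start, at 44753417 and used by 11 coding transcripts, is closer to that summit, at position 44753268. Starts further upstream were weaker or not covered: 8 coding transcripts start at 44756380, where no interval was listed, and the start at 44756819 lay in an interval of 1.70. Of the 7 intervals more than 1 kb from the canonical TSS, 1 reached 5, in intron 3 (6.35), where it overlaps Gm45669. Fcgrt had 5.74 intervals per 10 kb, the most of the 8 genes.

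Genes that work with these receptors were read from lists of partners and relatives. Of 14 adaptors of megalin and relatives of the 8 genes, 14 had a TSS interval at 5 or more and 12 had an away interval at 5 or more, with a median TSS fold enrichment of 35.9. The highest values were at Clcn3 (90.4) and Clcn4 (79.7), relatives of Clcn5, and at Numb (80.4), an endocytic adaptor. The lowest was at Lrp2bp (15.3), whose product binds megalin, and Clcn7, also a relative of Clcn5, was among the low values at 17.6. Of 19 genes of clathrin and endosomes, 19 had a TSS interval at 5 or more, with a median of 46.5 and a range of 16.2 to 103. The highest was Ap2a1, a subunit of the AP2 clathrin adaptor, and the lowest Cltb, a clathrin light chain. The 8 genes described here lay within this range except Cubn, at 15.1.

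Of 12 other genes of the LDL receptor family, to which Lrp2 belongs, 12 had a TSS interval and 11 reached 5, with a median of 34.3. The values were highest at Lrp12 (69.7), Lrp8 (60.6) and Lrp1 (48.1), a scavenger receptor, and lowest at Lrp1b (2.88), Lrp5 (13.4), a Wnt co-receptor, and Lrp4 (15.2), beside 33.1 at Lrp2. Genes of the cargo gave lower values: of 9, 8 had a TSS interval and 6 reached 5, with a median of 16.0. Among the cargo genes, Alb (albumin, 2.95) and Rbp4 (a vitamin A carrier, 2.68) were at percentiles 6.90 and 5.73 of TSS intervals. Alb also had an away interval at 21.0. The lowest of the 6 that reached 5 was Ttr (8.51), and Apoe (34.2) was among the highest. No interval was listed at Cblif, the intrinsic factor of the stomach. B2m, the light chain that pairs with the product of Fcgrt, had a TSS fold enrichment of 45.0, beside 49.8 for Fcgrt. The lists were described by counts and medians without a test.

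**Figure D4:**
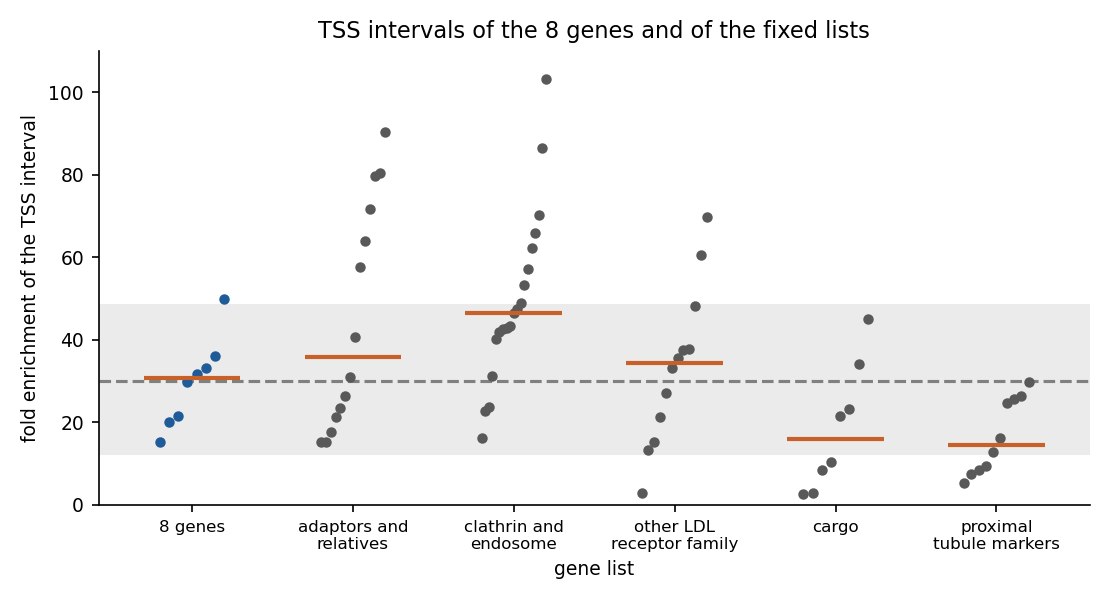
Fold enrichment of the TSS interval (linear axis) for the 8 genes, 4 lists of partner genes and the proximal tubule markers. Each point is a gene with a TSS interval, orange bars are medians (30.7 for the 8 genes, 46.5 for clathrin and endosome genes, 14.5 for proximal tubule markers), the dashed line is the median of protein-coding genes and the band their middle quartiles.

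The highest summit of each interval, with 100 bases on either side, was searched on both strands for exact matches to 5 short motifs. These were GTTAATNAT for HNF1 and CAAAGTCCA for HNF4, factors of the proximal tubule, AGGTCANAG for repeats bound by nuclear receptors, CCACNAGNG for CTCF and CACGTG for the E-box. HNF1 matched in 4 of the 232 windows (1.72%), beside 1.29% of the windows of all 279569 intervals, and HNF4 matched in 2 (0.862%), beside 0.887%. The nuclear receptor repeat matched in 7 (3.02%), beside 2.50%, CTCF in 5 (2.16%), beside 3.99%, and the E-box in 9 (3.88%), beside 3.87%. The shares at the 8 genes were thus near those of the whole list, and with so few matches they carry little weight. No match at the 8 genes overlapped a match of another motif. A match is a description of the letters and not of a bound site.

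The genes differed in the number of windows searched, with 70 at Dab2, 61 at Lrp2, 60 at Cubn and 18 at Clcn5. Genes with more windows have more room for a match. Whether the placement of the few matches departs from these numbers was not tested. Of the 7 repeats for nuclear receptors, 5 were at Dab2, all upstream of its canonical TSS, in intervals with fold enrichments of 1.70 to 3.73. The HNF1 matches were at Lrp2 (2), Cubn (1) and Clcn5 (1), and both HNF4 matches were at Lrp2. Those in intervals at 5 or more were the HNF4 match in Lrp2 intron 63 (17.2), the HNF1 match in the last exon of Clcn5 (10.5) and the HNF1 match in Cubn intron 6, which lay 3 bases from a summit of 7.59 and in an interval within 1 kb of the TSS of Gm75437. The Lrp2 windows with an HNF1 match were in intron 12 (4.84) and intron 1 (2.68). In 41 bases around them, with the match in capitals, the intronic HNF1 matches read as follows.
Cubn intron 6, chr2:13484093-13484133, minus strand: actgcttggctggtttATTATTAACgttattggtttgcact
Lrp2 intron 12, chr2:69353972-69354012, minus strand: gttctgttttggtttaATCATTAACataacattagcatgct
Lrp2 intron 1, chr2:69408149-69408189, minus strand: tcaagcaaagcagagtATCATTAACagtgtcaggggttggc

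Promoters were searched in the window from 250 bases before to 50 bases after the canonical TSS. None of the 8 windows held the HNF1, HNF4 or nuclear receptor letters, which are in 0.809%, 0.450% and 1.76% of the windows of all protein-coding genes. CTCF matched at Lrp2, beside 4.05% of all, and the E-box at Amn and Fcgrt, beside 7.82%. The Fcgrt window surrounds a canonical TSS used by 1 transcript. The start used by 11 coding transcripts, at 44753417, lies outside that window. The CpG class given for Fcgrt comes from the same window. By CpG content, 3 of the 8 windows (Lrp2, Dab2 and Lrpap1) had a ratio of 0.6 or more, beside 43.3% of all protein-coding genes. Among genes with a TSS interval in the same class of this ratio, the TSS fold enrichment was at percentile 39.7 for Lrp2, 33.8 for Dab2 and 37.2 for Lrpap1, and at 48.6 for Cubn, 58.3 for Amn, 77.0 for Clcn5, 55.9 for Ocrl and 88.7 for Fcgrt. The value for Clcn5 depends on the limit, since its ratio was 0.588. In the class at or over 0.6 the median fold enrichment was 39.2, above the 36.1 of Clcn5.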

How the data were processed

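ATAC-seq was made from 3 WT and 3 Acly cKO mouse kidneys per the labels. As the study's methods state, fastp trimming by the authors was followed by alignment to mm39 with Bowtie2 2.3.4.3. They removed duplicates and reads not mapped uniquely, called peaks with MACS3 3.0.0 (extension 200, shift 100, q 0.05) and filtered them with BEDTools 2.29.1. The methods print the shift without a sign, and a negative shift is usual for ATAC-seq. Summit positions, and so distances to a TSS and the motif windows, depend on it. The deposited list gives a fold enrichment (a linear ratio), a −log10 p and a −log10 q at each summit, a score that the authors' caller derived from q, and the offset of each summit. The deposited list before filtering holds the same −log10 q, and the filter removed no summit at the 8 genes. Library depth is unknown, with 0 columns of a single library.

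Rows were grouped into intervals by position, each taking the summit with the highest q. Reads were recovered from the steps of the fold enrichment: all of the 727147 summits under 20 were whole steps (tolerance 0.05) and matched the Poisson −log10 p within 0.01 plus 0.1%. Scripts ran in Python 3.11.15 with pandas 2.3.3, scipy 1.17.1 and pysam 0.24.0 and were tested on simulated data. Genes are GENCODE M39 and sequences GRCm39. The genes and lists were chosen with earlier results of these data known. Named intervals are those over the TSS and, at each gene, up to 3 of the strongest away from it. Other intervals were named after their values were seen. Genes of the lists are named from their 3 highest and 3 lowest TSS values. No statistical test was run across libraries. Alternatives changed the thresholds, regions, summits and motif windows.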

Additional observations from a re-analysis of the deposited data

How the results depend on the processing

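All 8 genes kept an interval over the TSS when the summit itself had to lie within 1 kb, when any transcript's TSS counted, and at a fold enrichment or a −log10 q of 5 or more. The number of intervals depended on the threshold: 232 in all became 114 at a −log10 q of 5 or more, 48 at a fold enrichment of 5 or more and 550 when summits were counted. Away from the TSS, 221 became 104 and 39 under the same thresholds, and 210 when the TSS of any transcript counted. Changes of the region gave 226 to 274 intervals. The median fold enrichment of the strongest interval, 31.5, moved to at most 32.3 under 3 alternatives. For Cubn alone, with 10 kb on either side, it became 82.1, at an interval outside the gene over the TSS of the neighbour Rsu1. Windows with any of the 5 motifs numbered 26, and 20 to 37 with other window widths or every summit. No paired analysis was possible because the pooled list has no column for a replicate, and for the same reason no replicate could be left out. Depth of the pool limits the weak intervals, which rest on as few as 25 reads.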
